A study of Mus musculus with 13 samples.

Results

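The dendritic cells analysed here were the cells that the deposited cell annotation places in its dendritic class, sorted from the spinal cord of mice with experimental autoimmune encephalomyelitis (EAE), in which an immune attack strips myelin from axons. Members were taken by that label alone, and they were 355 of 22148 annotated cells (1.60%), all of them in cluster 7 of the annotation. Every mouse carried the genotype Cx3cr1YFPCreERT2:R26tdTomato, in which a tamoxifen-inducible Cre expressed from the Cx3cr1 locus turns on the red fluorescent protein tdTomato. The promoter that drives Cre in this line is active in microglia, the long-lived resident macrophages of the central nervous system, and also in blood monocytes. The monocytes are later replaced by unmarked cells, so the mark is meant to separate resident from infiltrating cells. Live cells were sorted as resident or infiltrating from mice at the peak of EAE (2 libraries of each gate) and in its chronic phase (3 of each), and resident cells were also sorted from healthy controls (3 libraries). Of the dendritic cells, 335 came from the 5 infiltrating libraries and 20 from the 8 resident libraries, of which none held more than 6, so all comparisons use the infiltrating libraries. The labels call libraries of a group biological replicates without saying that each was a separate animal, so p-values measure the spread between these libraries.

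Dendritic cells are the leukocytes that take up antigen, load its peptides onto major histocompatibility complex (MHC) molecules and show them to T cells. Conventional type 1 cells (cDC1) present mainly on MHC class I, type 2 cells (cDC2) mainly on class II, plasmacytoid cells are specialised interferon producers, and mature migratory cells have switched on the receptor CCR7 that guides them to lymph nodes. They are rare in the healthy spinal cord and gather in it during EAE, where presentation of myelin peptides on class II restimulates T cells.

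Class II genes are therefore the first place to see what sets these cells apart, and 4 accessory genes of that pathway are shown by their promoters. H2-DMb1 and H2-DMb2 encode alternative beta chains of H2-M, which removes the class II-associated invariant chain peptide (CLIP) and loads antigen peptide. H2-Oa and H2-Ob encode the chains of H2-O, which restrains H2-M. The sequences are the 250 bases before each gene start in RefSeq, on GRCm38.p6, all on the plus strand. Capitals mark ATTGG, the core letters of the Y box of class II promoters, searched on both strands.
H2-DMb2, chr17:34144999-34145248: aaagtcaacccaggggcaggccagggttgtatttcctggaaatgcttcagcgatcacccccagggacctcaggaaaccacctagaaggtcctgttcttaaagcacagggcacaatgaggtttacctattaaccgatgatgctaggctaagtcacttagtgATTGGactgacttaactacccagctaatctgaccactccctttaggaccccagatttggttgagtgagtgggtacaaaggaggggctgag
H2-DMb1, chr17:34152941-34153190: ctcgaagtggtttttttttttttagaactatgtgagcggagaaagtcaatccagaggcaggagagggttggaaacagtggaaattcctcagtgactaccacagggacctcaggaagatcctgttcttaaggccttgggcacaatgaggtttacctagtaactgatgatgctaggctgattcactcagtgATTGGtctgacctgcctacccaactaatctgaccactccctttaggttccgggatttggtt
H2-Oa, chr17:34092129-34092378: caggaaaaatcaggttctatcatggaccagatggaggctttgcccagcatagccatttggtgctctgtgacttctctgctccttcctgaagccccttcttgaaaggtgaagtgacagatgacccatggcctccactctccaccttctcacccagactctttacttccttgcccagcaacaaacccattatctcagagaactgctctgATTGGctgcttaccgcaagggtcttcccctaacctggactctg
H2-Ob, chr17:34238655-34238904: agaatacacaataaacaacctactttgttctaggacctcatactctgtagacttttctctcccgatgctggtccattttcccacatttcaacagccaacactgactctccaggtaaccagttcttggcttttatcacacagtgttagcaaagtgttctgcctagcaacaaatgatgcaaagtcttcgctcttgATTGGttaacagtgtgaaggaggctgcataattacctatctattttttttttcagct
The match began 90 bases before the start of H2-DMb2, 61 before that of H2-DMb1, 43 before that of H2-Oa and 57 before that of H2-Ob. The RefSeq table held 8 promoters of 7 of the 10 class II genes looked for. Of these 8, 7 had a match, against 33.8% of all 32851 promoters, and 1 of the 2 promoters of H2-DMa had none. A match describes these letters only.

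The 5 infiltrating libraries are called peak a, peak b, chronic a, chronic b and chronic c, where the letters are names only, and values given as 5 numbers follow that order. They held 75, 27, 64, 35 and 134 dendritic cells. Their summed counts of unique molecular identifiers (UMIs) were 841405, 289594, 411350, 233597 and 1331159, and the median dendritic cell held 10992, 11846, 6036, 6824 and 9750.5 UMIs. Annotated microglia were 0.924%, 0.462%, 1.80%, 81.2% and 13.4% of their cells. The infiltrating gate thus did not keep resident cells out of chronic b and chronic c. No sequencing pool held infiltrating libraries of both stages, so stage and pool cannot be told apart. Libraries shared 55 cell barcodes (110 cells, 2 of them dendritic), 0 cells were marked as doublets in the annotation, and no doublet caller was run.

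Dendritic cells made up 3.85%, 6.24%, 10.5%, 1.48% and 24.2% of the cells of the infiltrating libraries. The exact 95% binomial intervals, which cover counting error only, were 3.04 to 4.80%, 4.15 to 8.94%, 8.15 to 13.2%, 1.04 to 2.06% and 20.7 to 28%. Chronic libraries held both the lowest and the highest share, so the stages overlapped. The mean was 5.04% ± 1.69 at the peak (SD, n = 2) and 12.1% ± 11.5 in chronic disease (SD, n = 3), with a two-sided exact permutation p of 0.6, where 0.1 is the smallest that this design allows. The difference of 7.01 percentage points was 0.928 without chronic c. Among cells other than microglia the shares were 3.89%, 6.26%, 10.6%, 7.88% and 28%, and every chronic value then lay above both peak values (exact permutation p = 0.3 for the means). Since cells were collected by sorting, the shares are of sorted cells, not of the spinal cord. In resident libraries there were 5, 6 and 6 dendritic cells in chronic disease, 1 and 0 at the peak and 2, 0 and 0 in controls. Where a resident library had 0, the count allows a share of at most 0.408% (3 counts, peak), 0.260% and 0.0921% (controls).

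The label fitted the marker genes. All 5 genes given as markers of the class (H2-DMb2, Ccl17, Clec10a, Cd209a and Ccr7) were at least 2-fold higher in dendritic cells than in both monocytes and macrophages of the same library, in 5 of 5 libraries. Among all 5688 genes that reached a mean of 20 CPM (summed counts per 1000000) in at least 1 of the 3 classes, 61 (1.07%) were higher in this way and 138 (2.43%) were lower. Ratios are of CPM + 10, from counts summed over the cells of a class in a library. The annotation was made from these same cells and genes, so the comparison of classes is a description with no test.

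H2-DMb2 was at 427, 273, 270, 475 and 389 CPM in dendritic cells, against 16.8 to 40.3 CPM in monocytes and 7.10 to 24.4 CPM in macrophages. Ccl17, a chemokine that attracts T cells carrying CCR4, was at 506, 2276, 994, 676 and 482 CPM, against 1.44 to 95.5 CPM in monocytes. Peak b was far above the other libraries for Ccl17, while H2-DMb2 varied by less than 2-fold. Clec10a, a lectin that binds galactose-type sugars, was at 127, 193, 229, 188 and 324 CPM, against 7.04 to 29.8 CPM in monocytes. Cd209a, a C-type lectin of the DC-SIGN family that marks cDC2 and some monocyte-derived cells, was at 26.1, 186, 226, 218 and 440 CPM, lowest in peak a. Ccr7 was at 322, 79.4, 221, 248 and 13.5 CPM, lowest in chronic c, and macrophages were listed at 0 in 4 of 5 libraries. Cd209a and Ccr7 thus lay at opposite ends in peak a and chronic c.

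**Figure D1:**
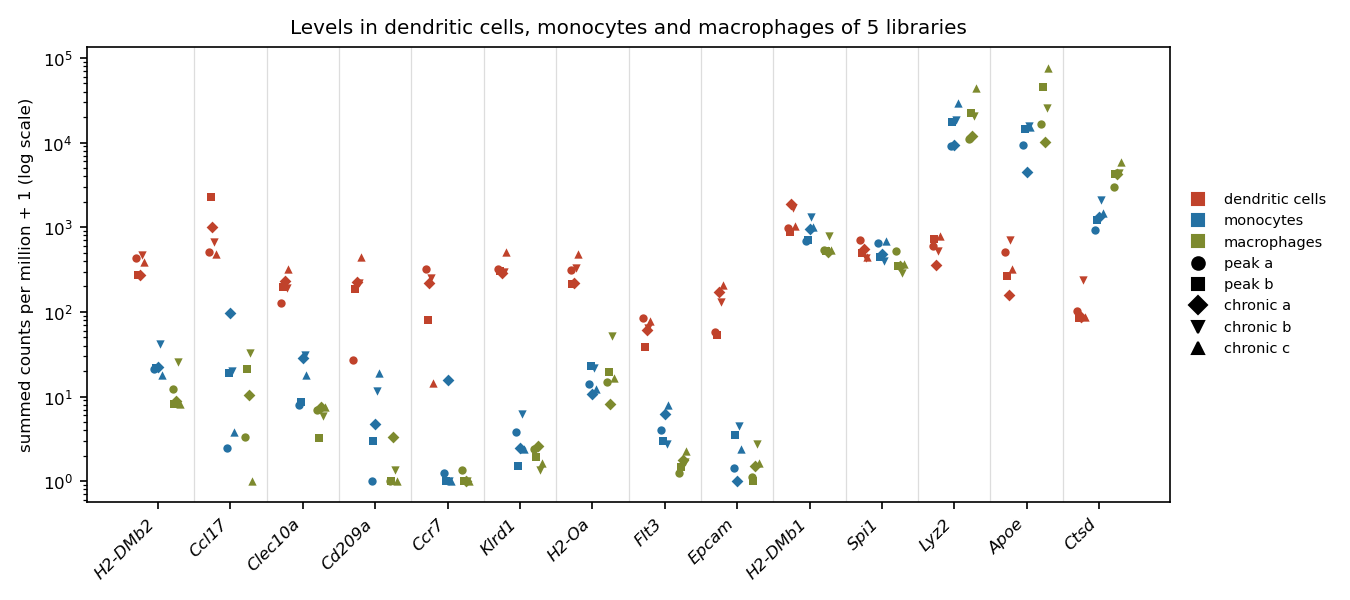
Levels of 14 genes as summed CPM + 1 (log scale) in dendritic cells, monocytes and macrophages, with 1 point per infiltrating library. The 5 marker genes, Klrd1, H2-Oa, Flt3 and Epcam lie higher in dendritic cells, H2-DMb1 and Spi1 overlap or nearly so, and Lyz2, Apoe and Ctsd lie lower.

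Growth factor receptors split the classes. Flt3, the receptor that dendritic cells and their precursors need for FLT3 ligand, was at 84.4, 38.0, 60.8, 64.2 and 77.4 CPM, against 1.75 to 7.00 CPM in monocytes. Kit, the receptor for stem cell factor, was at 48.7, 128, 31.6, 25.7 and 69.1 CPM, and monocytes were at or below 1.51 CPM. Csf1r, the receptor that monocytes, macrophages and microglia depend on, was at 67.7, 62.2, 63.2, 128 and 99.2 CPM, against 348 to 584 CPM in monocytes. Of the 11 growth factor receptor genes that reached the level above, Flt3 and Kit were at least 2-fold higher than both classes in every library, and Csf1r and Csf3r, the receptor for G-CSF, at least 2-fold lower.

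Transcription factors showed the same split in part. Zbtb46, a factor of committed conventional dendritic cells, was at 30.9, 38.0, 21.9, 29.97 and 29.3 CPM, against at most 4.20 CPM in monocytes and 0.909 CPM in macrophages. Its values varied by less than 2-fold between libraries. Irf8, which cDC1 and plasmacytoid cells require, was at 538, 566, 435, 146 and 35.3 CPM, so it spanned more than 10-fold. Its 3 highest values were in the same 3 libraries that held most cells with plasmacytoid markers as a share. These 3 libraries also had the highest interferon response sums, given below. A UMI of Irf8 was in 74.7%, 74.1%, 64.1%, 40.0% and 21.6% of dendritic cells. The plasmacytoid marker set described below was in 20.0%, 11.1%, 12.5%, 2.86% and 0% of these cells. The part of plasmacytoid cells or of the interferon response in the Irf8 levels was not tested. Irf4, used by cDC2 and mature cells, was at 13.1, 41.4, 70.5, 77.1 and 20.3 CPM. Spi1, the myeloid factor PU.1, was at 437 to 701 CPM and overlapped with monocytes (403 to 693 CPM). Of the 19 factors past the level, 2 were at least 2-fold higher than both classes in every library and 0 were lower.

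Of the 4 accessory genes shown above, H2-DMb2, H2-Oa and H2-Ob stood further above monocytes than the class II chains did, and H2-DMb1 did not. H2-Oa was at 311, 214, 219, 325 and 484 CPM in dendritic cells, against 9.63 to 22.1 CPM in monocytes and 7.11 to 51.3 CPM in macrophages. H2-Ob was at 39.2, 41.4, 70.5, 68.5 and 124 CPM, against 0.933 to 5.60 CPM in monocytes. H2-DMb1 was at 966, 884, 1906, 1700 and 1035 CPM, against 694 to 1316 CPM in monocytes. H2-DMb2, H2-Oa and H2-Ob were the 3 of 13 class II and loading genes that were at least 2-fold higher everywhere, while the median log2 ratio of H2-DMb1 to monocytes was 0.37, against 0.86 over the whole list. H2-DMb1 and H2-DMb2 are close copies, so reads could be split between them. The classical chain gene H2-Aa was at 8496, 5211, 10111, 13921 and 12573 CPM, against 3519 to 10008 CPM in monocytes. Cathepsin S (Ctss) and legumain (Lgmn), proteases that process antigen and invariant chain, were the 2 members at least 2-fold lower in every library, with Ctss at 1578 to 3142 CPM against 3911 to 11964 CPM in monocytes. Of 20 MHC class I and loading genes, 0 were past 2-fold in either direction in every library.

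The genes that stood out most by the naming rule included receptors better known from lymphocytes. Klrd1, the CD94 chain of NKG2 receptors, was at 316, 304, 289, 295 and 516 CPM in dendritic cells, against 0.502 to 5.26 CPM in monocytes. Klrk1 (NKG2D) was at 359, 252, 297, 197 and 110 CPM, against 5.60 to 29.6 CPM in monocytes. Of the 11 genes of natural killer (NK) and innate lymphoid cells, only Klrd1 reached the level, and 0 of 355 dendritic cells held at least 2 of the 3 NK markers Nkg7, Klrb1c and Ncr1 (a count of 0 allows up to 0.845%). T cells of the same libraries also had Klrd1, with a UMI in 29.6% of 328 T cells and 30.8% of 334 dendritic cells when each cell was thinned to 1000 UMIs. Monocytes were at 0.263% and microglia at 0.0998%.

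Other leading genes were Epcam, an adhesion molecule, at 57.0, 51.8, 173, 128 and 209 CPM, and Btla, an inhibitory receptor for HVEM, at 73.7, 79.4, 60.8, 55.7 and 61.6 CPM. Kmo, an enzyme of tryptophan breakdown, was at 108, 214, 82.7, 64.2 and 45.1 CPM. Ccl22, a partner of Ccl17 at CCR4, was at 77.3, 238, 250, 193 and 51.1 CPM. For none of these 4 genes did monocytes exceed 11.8 CPM. The other named genes on the high side were Kctd14, Qpct, Spint2, Cd7, Klrb1b, Mgl2 and Ltb.

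On the low side were macrophage and monocyte genes. Apoe, a lipid carrier, was at 505, 262, 156, 702 and 325 CPM, against 4468 to 15716 CPM in monocytes and 10149 to 76716 CPM in macrophages. Lyz2 (lysozyme M) was at 593, 725, 360, 522 and 783 CPM, against 9047 to 29178 CPM in monocytes. Ctsd (cathepsin D), a lysosomal protease, was at 102, 82.9, 85.1, 235 and 87.1 CPM, against 916 to 2077 CPM in monocytes. The other named genes were Pla2g7, Mgst1, Ms4a7, Trem2, Hp, C5ar1 and C1qc. Of 15 macrophage genes 10 were at least 2-fold lower in every library, with a summed level of 1675 to 4135 CPM against 39444 to 110161 CPM in macrophages. Among monocyte genes, 4 of 11 were lower in the same way. Over all 5688 genes the median log2 ratio was -0.01 to monocytes and 0.09 to macrophages, against -3.39 and -4.60 for the macrophage list.

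The single class held cells with markers of several dendritic subsets. With each infiltrating cell thinned to 1000 UMIs (334 dendritic cells, 1 shallower cell left out), 18.6% had a UMI of Cd209a, 19.5% of Clec10a, 24.6% of Mgl2 and 22.2% of Ccl17. Ccr7 was in 7.19% and Siglech, a receptor of plasmacytoid cells and microglia, in 5.09%. Without thinning the shares of the same 6 genes were 36.7%, 47.8%, 40.0%, 47.8%, 9.85% and 10.7%. In 328 thinned T cells, which are not known for these genes, the shares ran from 0% to 0.305% for Cd209a, Clec10a, Mgl2, Ccl17 and Ccr7 (a count of 0 allows up to 0.915%). T cells had a median of 2860.5 to 7258 UMIs before thinning, against 6036 to 11846 for dendritic cells. Siglech was in 15.5% of thinned microglia. Xcr1, the chemokine receptor that defines cDC1, was in 0 of 334 thinned dendritic cells (up to 0.898%) and in 7 of 335 unthinned ones, of which 6 also had Clec9a, another cDC1 marker.

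The libraries differed in these shares. Mgl2, a lectin of cDC2, was in 0 of 75 thinned cells in peak a, 7.41% in peak b, and 12.5%, 17.6% and 49.3% in chronic a, b and c. Ccr7 was in 13.3%, 3.70%, 12.5%, 8.82% and 1.49%. After thinning, Mgl2 was more frequent in each chronic library than in both peak libraries, but only 2 of 27 cells stood behind the value of peak b. Without thinning the Mgl2 shares were 9.33%, 25.9%, 25%, 40.0% and 67.2%, so peak b lay above chronic a and the stages overlapped, as they did for Ccr7.

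Ccr7 and Cd209a were rarely found in the same cell. Of 33 infiltrating dendritic cells with a Ccr7 UMI, 1 had Cd209a (3.03%), against 122 of the 302 without Ccr7 (40.4%). Fscn1 (fascin), which bundles actin in the dendrites of mature cells, was in 27 of the 33 (81.8%) and in 8 of the 302 (2.65%). Ccl22 was in 25 of the 33 (75.8%) and in 44 of the 302 (14.6%). Ccl17 was in 17 of 33 (51.5%) and in 143 of 302 (47.4%). These are pooled cells of 5 libraries and carry no test, and chronic c gave 132 of the 302 cells but 2 of the 33. By library, Cd209a was in 0 of 14, 0 of 1, 1 of 11, 0 of 5 and 0 of 2 Ccr7 cells. Cells were not thinned here. Those with the mature marker set counted below were shallower, at a median of 5266 UMIs, against 9622.5 in the 274 outside the counts. The part of depth was not tested. Within libraries Ccl17 was more frequent in the Ccr7 cells in 4 of 5, at 42.9% against 18.0% in peak a and 63.6% against 41.5% in chronic a. In peak b and chronic c Ccl17 was in 1 of 1 and 2 of 2 Ccr7 cells, against 69.2% and 60.6% of the cells without Ccr7. In chronic b it was less frequent, at 20.0% of 5 cells against 40.0% of 30.

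Cells were then counted by marker sets, with the least number of markers set after the data were seen at about 50% of each set. The plasmacytoid set (at least 3 of Siglech, Ccr9, Cox6a2, Klk1, Ly6d and Tcf4) was met by 29 of the 355 dendritic cells, and by 2 of 3200 infiltrating monocytes and macrophages. At least 4 of the 7 mature migratory markers (Ccr7, Fscn1, Ccl22, Il4i1, Socs2, Cacnb3 and Relb) were in 34 cells, and in 2 of the 3200. At least 3 of the 5 cDC2 markers (Cd209a, Clec10a, Mgl2, Irf4 and Sirpa) were in 125 cells, and in 14 of the 3200. The cDC1 set (at least 3 of Xcr1, Clec9a, Batf3, Cadm1, Wdfy4 and Naaa) was met by 56 cells and by 45 of the 3200. Plasmacytoid and mature sets shared 1 cell, and the larger cDC1 and cDC2 sets shared 17. How many cells sets of these sizes would share by size alone was not computed, so the 2 overlaps are not compared. Of the 56 cDC1 cells, 41 were exactly at the minimum. With 1 marker fewer or more, the cDC1 count was 152 or 15, the cDC2 count 203 or 42, the plasmacytoid count 50 or 22 and the mature count 51 or 28. With cells thinned to 2000 UMIs the cDC1 count was 7, the cDC2 count 36, the mature count 25 and the plasmacytoid count 16, so the first 2 moved most with depth.

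Cells with the mature set were 12 of 75 (16%), 1 of 27 (3.70%), 12 of 64 (18.8%), 5 of 35 (14.3%) and 3 of 134 (2.24%) in the 5 libraries. Cells with the plasmacytoid set were 15 of 75 (20.0%), 3 of 27 (11.1%), 8 of 64 (12.5%), 1 of 35 (2.86%) and 0 of 134 (which allows up to 2.24%). The cDC2 set was in 12%, 37.0%, 23.4%, 28.6% and 59.0% of the cells. The stages overlapped for these 3 sets. The cDC1 set was in 20.0%, 33.3%, 6.25%, 2.86% and 18.7%, so each chronic value lay below both peak values, though chronic c was close to peak a. Chronic c, the library with most dendritic cells, had the highest cDC2 share and the lowest mature and plasmacytoid shares. Median UMIs per dendritic cell, given above, also differed between the libraries, and their part in these shares was not tested.

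**Figure D2:**
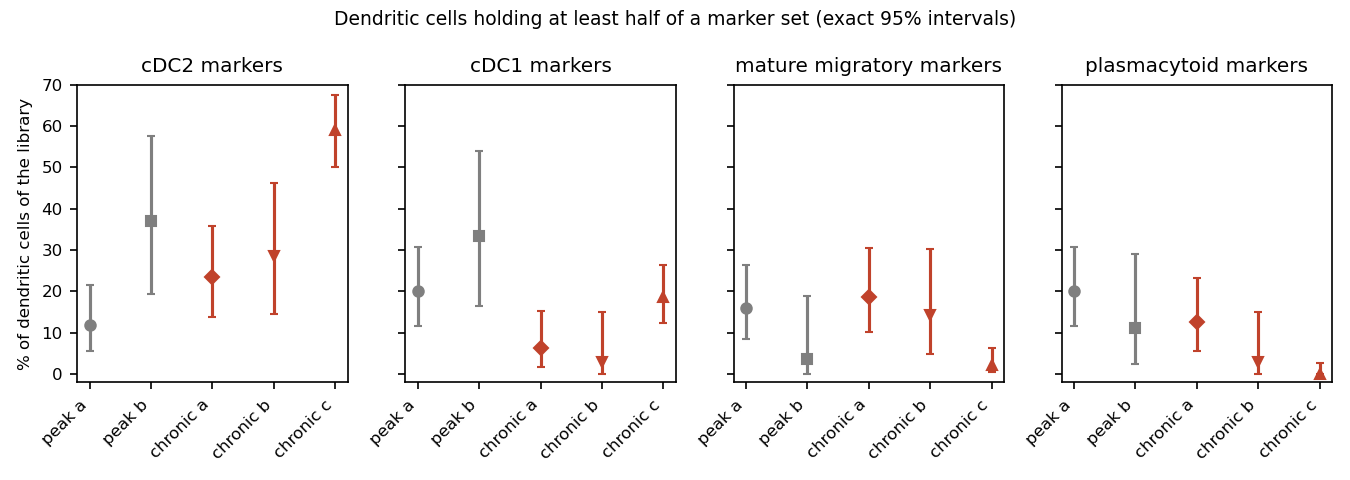
Share of the dendritic cells of each infiltrating library (%) that held at least the set minimum of cDC2, cDC1, mature migratory or plasmacytoid markers, with exact 95% binomial intervals. The cDC2 share runs from 12% in peak a to 59.0% in chronic c, and the plasmacytoid share from 20.0% to 0 in the same libraries.

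Some cells of the class carried markers of cells that are not dendritic. At least 2 of the B cell markers Cd79a, Cd79b and Ms4a1 were in 8 cells (6 of them in resident libraries), at least 3 of 5 T cell markers in 7, and at least 2 of 8 mast cell and basophil markers in 6 (4 in resident libraries). With each cell counted once, 33 cells had the mature set, 27 the plasmacytoid set and 21 markers of these other cells, which left 274. The 21 included 2 of 5, 3 of 6 and 5 of 6 of the dendritic cells of the chronic resident libraries. Neutrophil markers (at least 2 of 3) were in 0 of the 355 (up to 0.845%).

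Cells with the mature set were set beside the cells outside all these counts, in the 3 libraries with at least 5 of them. This is a description, since the cells were chosen by their transcripts, and values are for peak a, chronic a and chronic b. Fabp5, a fatty acid carrier, was at 1955, 5763 and 9409 CPM in cells with the mature set and at 31.9, 263 and 65.1 CPM in the others. Ccl5, a chemokine for T cells and monocytes that was not among the markers, was at 10325, 9031 and 15895 CPM, against 1161, 1506 and 699 CPM. Both were higher in every one of the 3 libraries. For Fabp5 this was part of the choice, since it was named by its lowest ratio over these libraries.

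Surface molecules that meet T cells were also higher in the cells with the mature set. Cd83, which stabilises class II at the surface, was at 560, 826 and 877 CPM, against 78.1, 159 and 16.3 CPM. Cd200, a ligand that restrains myeloid cells, was at 492, 705 and 818 CPM, against 23.9, 17.3 and 5.42 CPM. Cd274 (PD-L1), an inhibitory ligand, was at 412, 155 and 175 CPM, against 65.4, 55.3 and 0 CPM, with only 3 UMIs behind the value of chronic b. Cd80, a costimulator, was at 91.5, 103 and 117 CPM, from 8, 6 and 2 UMIs. The costimulation and checkpoint genes summed to 2996, 2838 and 3682 CPM, against 1089, 1351 and 960 CPM.

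The 2 antigen presentation lists went opposite ways. Class II and loading genes summed to 47407, 68467 and 54172.5 CPM in the cells with the mature set, against 64345, 103032 and 123052 CPM in the others, so they were lower in 3 of 3 libraries. MHC class I and loading genes summed to 30061, 24858 and 28576 CPM, against 18011, 15179 and 13461 CPM, and were higher in 3 of 3. H2-DMb1 was at 343, 688 and 234 CPM in the cells with the mature set and at 1164, 2384 and 1827 CPM in the others. The copy H2-DMb2 was at 400, 464 and 584 CPM, against 513, 280 and 504 CPM, so it was higher in 2 libraries and lower in 1. H2-DMb1 was lower in 3 of 3 libraries, but the rule that named it picks such genes. Qpct, an enzyme that modifies chemokines, and Anxa1 (annexin A1) were lower as well, with Anxa1 at 11.4, 17.2 and 0 CPM against 202, 221 and 206 CPM. Interferon response genes summed to 7615, 10442 and 5610 CPM, against 18547, 16457 and 6337 CPM.

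Il12b, which encodes the p40 chain of interleukin 12 and 23, was seen mainly in 1 library. Peak a had 32 UMIs in its 12 cells with the mature set (366 CPM), chronic a had 1 UMI and chronic b 0, and the other cells had 0 CPM in each of the 3 libraries. Il10 and Tnfsf18 (GITR ligand) were at 0 in dendritic sums of all 5 libraries. T cell genes in the cells with the mature set were mostly Il7r, a cytokine receptor, at 297, 361 and 409 CPM, whereas Cd3e was at 0 in all 3.

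Cells with the plasmacytoid set could be summed in peak a (14 cells) and chronic a (8 cells). Bst2 (tetherin), an antiviral surface protein of plasmacytoid cells, was at 4567 and 5430 CPM, against 735 and 698 CPM in the other cells of the same libraries. Ly6c2, a surface antigen of plasmacytoid cells and inflammatory monocytes, was at 1459 and 1404 CPM, against 70.2 and 111 CPM. Bcl11a, a factor upstream of the plasmacytoid programme, was at 694 and 999 CPM, against 43.1 and 79.5 CPM. None of these 3 genes was in the marker set. They were named by their lowest ratio over the 2 libraries, so being higher in both was part of the choice.

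Class II genes were low in the cells with the plasmacytoid set. H2-Eb1 was at 607 and 374 CPM, against 7218 and 6836 CPM, and H2-Ab1 at 749 and 374 CPM, against 6721 and 4577 CPM. H2-DMb2 was at 15.8 and 0 CPM, from 2 and 0 UMIs, against 513 and 280 CPM. The rule that named H2-Eb1, H2-Ab1 and H2-DMb2 picks genes that are lower in both libraries. The class II and loading genes together summed to 14095 and 14980 CPM, against 64345 and 103032 CPM. Ccl17 and Cxcl9, a chemokine induced by interferon gamma, had 0 UMIs in these cells in both libraries, against 993 and 601 CPM of Cxcl9 in the others. Ighm, the heavy chain of IgM, was at 552 and 1061 CPM, against 65.4 and 128 CPM, while the B cell genes Cd79a and Ms4a1 were at 0 in both libraries. The 2 B cell list genes with a mean of at least 20 CPM in dendritic cells summed to 623 and 1061 CPM, against 71.8 and 131 CPM. Iglc3 and Blnk, also known from B cells, were among the genes named as higher in the cells with the plasmacytoid set. Among T cell genes, Il7r was at 386 and 312 CPM, against 11.2 and 51.8 CPM, and Cd8a and Cd8b1, the chains of CD8, were at 197 and 62.4 CPM and at 134 and 531 CPM. Cd3d, Cd3e, Trac and Trbc2 were at 0 in both libraries.

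**Figure D3:**
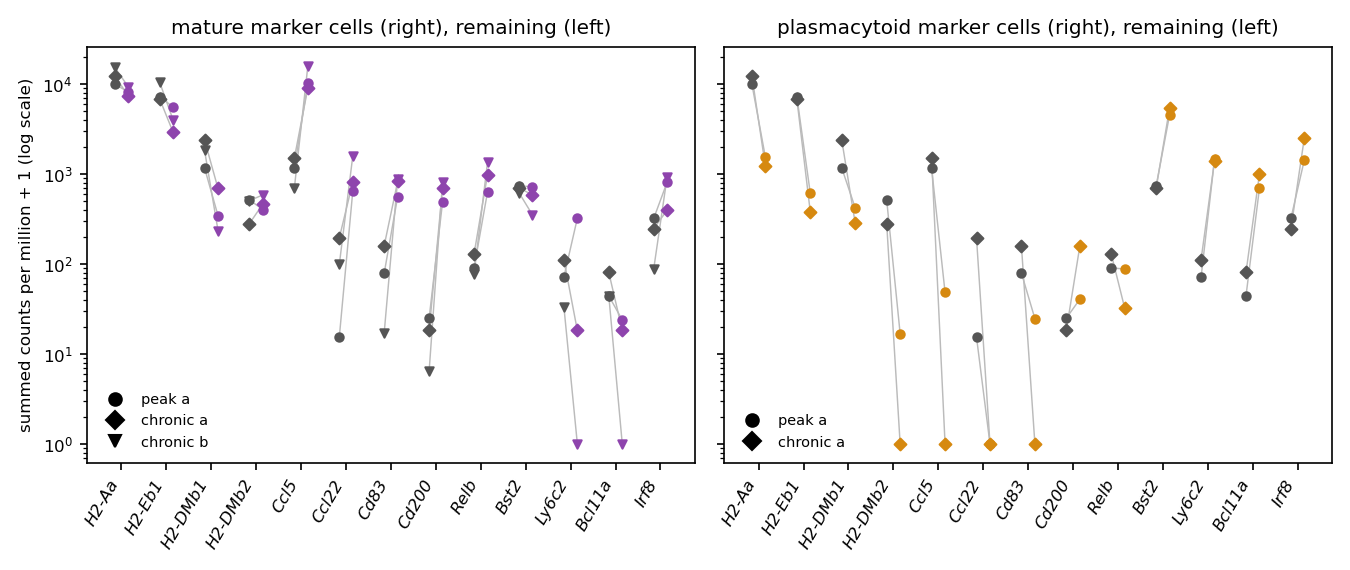
Summed CPM + 1 (log scale) of 13 genes in cells with the mature set (left panel, 3 libraries) or the plasmacytoid set (right panel, 2 libraries), beside the remaining dendritic cells of the same library, joined by a line. Cd83 lies higher in the cells with the mature set, as does Ccl22, which was one of the markers that chose them, while H2-Aa, H2-Eb1 and H2-DMb2 lie lower in the cells with the plasmacytoid set.

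Dendritic cells of chronic disease were compared with those of the peak, summed per library and fitted with edgeR's quasi-likelihood test. Of 4831 genes tested, 0 (0%) passed an adjusted p of 0.05, the smallest Benjamini-Hochberg adjusted p being 0.28. At an unadjusted p under 0.05 there were 392 (8.11%), of which 185 (3.83%) were higher and 207 (4.28%) lower in chronic disease. DESeq2 called 13 (0.269%). The result rested on chronic a: without it, edgeR called 92 of 5444 genes (1.69%), 32 higher (0.588%) and 60 lower (1.1%), and 12 of the 13 genes of DESeq2 were among them. Without any other single library it called 0. The monocyte and macrophage sums of the same libraries also gave 0 of 9705 genes (0%), with 922 (9.5%) at an unadjusted p under 0.05, of which 496 (5.11%) were higher and 426 (4.39%) lower in chronic disease.

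The genes with the smallest p are given with their values and were not called by edgeR. Phgdh, the first enzyme of serine synthesis, was at 108, 86.3, 14.6, 17.1 and 10.5 CPM, a log2 difference of -2.68 ± 0.40 (SE, edgeR adjusted p = 0.28). Fgl2, a secreted fibrinogen-like immune regulator, was at 439, 625, 105, 68.5 and 134 CPM (-2.09 ± 0.39, edgeR adjusted p = 0.407). Ifi44, an interferon-induced gene, was at 41.6, 86.3, 12.2, 4.28 and 0.751 CPM (-3.59 ± 0.79). In these 3 genes each chronic value lay below both peak values. Slc4a8, a bicarbonate transporter, and Batf2, a factor induced by interferon gamma, had log2 differences of -3.75 ± 0.76 and -2.78 ± 0.60.

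Higher in chronic disease by the same rule was Hpgd, which breaks down prostaglandins, at 3.57, 0, 31.6, 68.5 and 165 CPM (edgeR adjusted p = 0.407). Tmem176b, a membrane channel protein of immature dendritic cells, was at 250, 231, 532, 1023 and 886 CPM (1.96 ± 0.42). Ltb4r1, the receptor for leukotriene B4, was at 19.0, 34.5, 126, 72.8 and 141 CPM (2.43 ± 0.49). The stages did not overlap for any of these 3 genes. Dcstamp, named for its expression in dendritic cells and needed for fusion of osteoclasts, and Epcam had log2 differences of 3.27 ± 0.68 and 1.87 ± 0.40. DESeq2 called Hpgd, Tmem176b, Ltb4r1, Dcstamp, Phgdh, Fgl2, Slc4a8 and Ifi44 among its 13.

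The stage values of interferon response genes depended on 1 library. Their summed level in dendritic cells was 17004, 14033, 15430, 6408 and 3532 CPM, so chronic a lay between the peak libraries and chronic b and c lay well below them. Monocytes of the same libraries had 14522, 10493, 16105, 4742 and 5078 CPM, with chronic a again high. Chronic a and chronic b were sequenced in the same pool. Of 30 list genes tested in dendritic cells, 0 were called by edgeR. An unadjusted p under 0.05 was seen for 7, all lower, against 4.28% lower among all genes tested. The median log2 difference was -0.98, against 0.01 over all genes. Without chronic a, 15 of the 30 were called and lower, against 1.1% of all genes tested. The median was then -2.23, and the median over all genes was 0.01. DESeq2, with all libraries, called 1 gene of this list, Ifi44.

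Iigp1, an interferon gamma-induced GTPase against intracellular parasites, was at 416, 725, 214, 21.4 and 8.26 CPM (-2.72 ± 0.92, edgeR adjusted p = 0.563), and its log2 difference was -5.30 ± 0.54 without chronic a. Cxcl9 was at 761, 1433, 496, 72.8 and 82.6 CPM (-2.19 ± 0.69), and -3.51 ± 0.47 without chronic a. Cd274 was at 96.3, 145, 68.1, 12.8 and 3.76 CPM. For these 3 genes all chronic values lay below both peak values, with chronic a nearest to them. Cxcl10, another interferon-induced chemokine, was at 239, 383, 951, 17.1 and 26.3 CPM, so chronic a was the highest library and the stages overlapped. These 4 genes were chosen after their values were seen.

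The class II and loading genes summed to 55015, 41040, 86766, 111414 and 83583 CPM in dendritic cells, with each chronic library above both peak libraries. The median log2 difference of the 13 genes was 0.62, and 0 were called by edgeR. An unadjusted p under 0.05 was seen for 3, all higher, against 3.83% higher among all genes tested. Cd74, the invariant chain that carries class II to the loading compartment, was at 29558, 15732, 61556, 76525 and 43310 CPM (1.57 ± 0.63, edgeR adjusted p = 0.598). Monocytes had summed levels of 34332, 30735, 38515, 93972 and 49093 CPM for the same genes, with chronic b highest in both classes. C-type lectins, the family of Cd209a and Clec10a, had a median log2 difference of 1.09 over 12 genes, against 0.16 over 11 genes in the monocyte and macrophage sums. The interaction described below had a median of -0.02 over the 17 lectin genes it tested, with 0 called. Of the 12, 0 were called, 5 were higher at an unadjusted p under 0.05 and 1, Clec9a, was lower. Among all genes tested, 3.83% were higher and 4.28% lower at that level. Mgl2 was at 24.96, 190, 146, 334 and 996 CPM, so the stages overlapped for it and chronic c was highest.

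**Figure D4:**
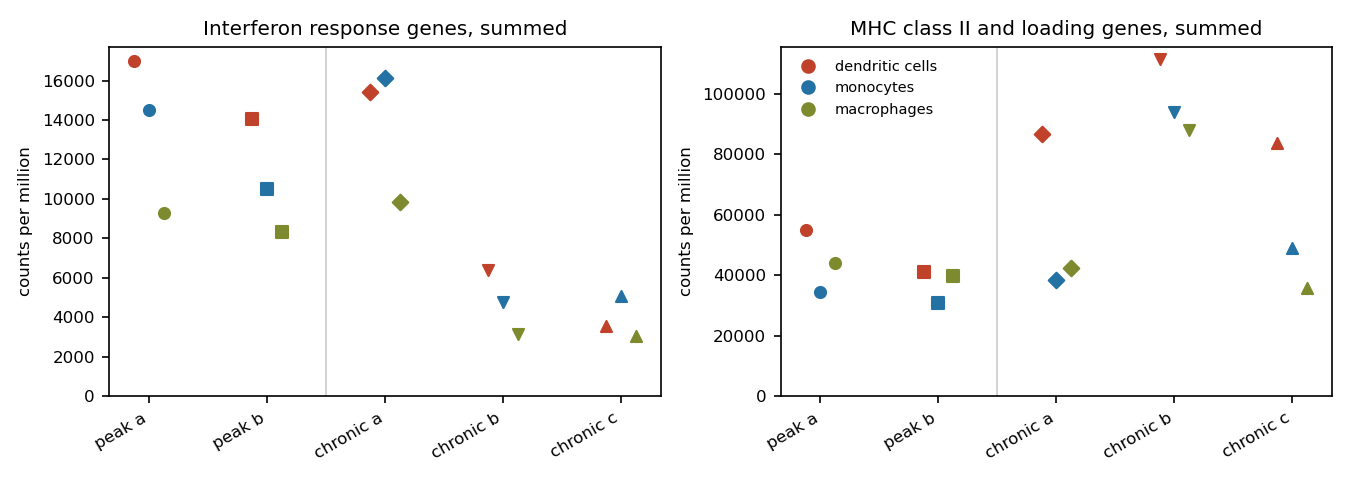
Summed CPM of interferon response genes (left) and MHC class II and loading genes (right) in dendritic cells, monocytes and macrophages of each infiltrating library. For interferon genes chronic a lies near or above the peak libraries in all 3 classes, and for class II genes the dendritic point is the highest of the 3 classes in every library.

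Subset lists and other groups showed no call by edgeR between the stages. The cDC1 list had a median log2 difference of -1.0 over 8 genes, and Naaa, a lysosomal amidase of that list, was at 283, 490, 163, 103 and 104 CPM. The median was 0.82 over the 14 cDC2 genes, 0.28 over 22 mature migratory genes and -0.34 over 19 MHC class I genes. At an unadjusted p under 0.05, 3 cDC1 and 5 MHC class I genes were lower and 4 cDC2 genes higher. Among mature migratory genes 2 were higher and 1 lower at that level. The shares over all genes tested were 3.83% higher and 4.28% lower. In the monocyte and macrophage sums the medians were -0.39 (cDC1, 7 genes), 0.29 (cDC2, 13), 0.01 (mature migratory, 18) and -0.47 (MHC class I, 19). Without chronic a the mature migratory median turned to -0.16 (1 gene of 22 called, lower) and the MHC class I median was -0.64 (0 called). Among all genes tested in that fit, 1.1% were called lower. For the nuclear-encoded subunits of respiratory complex I, the site of the reverse electron transport named in the study's title, the median was 0.14 over 36 genes, with a summed level of 6795, 5653, 7665, 7988 and 5453 CPM. The dendritic complex I levels thus overlapped between the stages. Cd86, a costimulator that binds CD28, was at 198, 200, 99.7, 17.1 and 54.1 CPM, so each chronic value lay below both peak values. Cd40, the receptor for T cell CD40 ligand, was at 95.1, 173, 163, 59.9 and 24.8 CPM, and Cd83 at 120, 96.7, 250, 81.3 and 54.1 CPM. For these 2 genes the stages overlapped.

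Markers of other cells were also summed in the dendritic cells. Of the 14 T cell genes, summed levels were 181, 76.0, 421, 283 and 91.6 CPM, highest in chronic a and b. The 9 B cell genes summed to 159, 131, 194, 458 and 129 CPM, above the 13.1 to 99.4 CPM of monocytes in every library, and the 7 oligodendrocyte genes to 358, 152, 190, 141 and 94.7 CPM. The 11 neutrophil genes summed to 3.76 to 21.9 CPM, with 5 of them at 0 in all libraries. The 14 microglia genes summed to 1003, 632, 955, 1263 and 965 CPM, below monocytes in every library, and the 12 monocyte genes to 4786, 4689, 3114, 1374 and 1402 CPM, against 17904 to 32292 CPM in monocytes. Without the cells that held B, T, mast cell or basophil markers, edgeR again called 0 genes between the stages. The log2 difference of Phgdh was then -2.64, against -2.68, and that of Hpgd 5.40, against 5.33. Leaving out instead the 7 cells of these libraries that had 2 or more UMIs of T cell receptor complex genes also gave 0 calls. The part of monocyte and microglia transcripts in the stage values was not tested.

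Whether the stages differed in dendritic cells in another way than in monocytes and macrophages was tested with the library as a block and a stage by class term. Of 9382 genes, edgeR called 3 (0.032%), 2 higher and 1 lower in dendritic cells relative to the other class, and 605 (6.45%) had an unadjusted p under 0.05, 315 (3.36%) of them higher and 290 (3.09%) lower. DESeq2 called 3. The count ran from 0 without chronic b to 133 without chronic a.

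Phgdh had an interaction of -3.66 ± 0.48 (log2, SE, edgeR adjusted p = 0.0109). Its level in monocytes and macrophages together was 5.73, 10.3, 17.7, 13.8 and 10.2 CPM, against the 108, 86.3, 14.6, 17.1 and 10.5 CPM of dendritic cells. The 2 classes were thus far apart in the peak libraries only, and close to each other in the chronic ones. It was called in 12 of 15 alternatives, with adjusted p of 0.728 without peak a, 0.151 against monocytes alone and 0.11 without chronic b.

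Hopx, a homeodomain protein without DNA binding, was at 11.9, 3.45, 60.8, 72.8 and 27.8 CPM in dendritic cells and at 278, 141, 246, 194 and 91.5 CPM in monocytes and macrophages (3.01 ± 0.42, edgeR adjusted p = 0.0143). The dendritic values were higher in each chronic library than in both peak libraries, while in the other class the stages overlapped. Hopx was called in 10 of 15 alternatives, with a highest adjusted p of 0.8, and it was at 0.124 without the cells that held B, T, mast cell or basophil markers. Pid1, an adaptor that dampens insulin signalling, was at 65.4, 89.8, 117, 244 and 292 CPM in dendritic cells and at 261, 289, 151, 133 and 288 CPM in the other class (2.13 ± 0.33, edgeR adjusted p = 0.0303). It was called in 9 of 15 alternatives, with a highest adjusted p of 0.8.

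**Figure D5:**
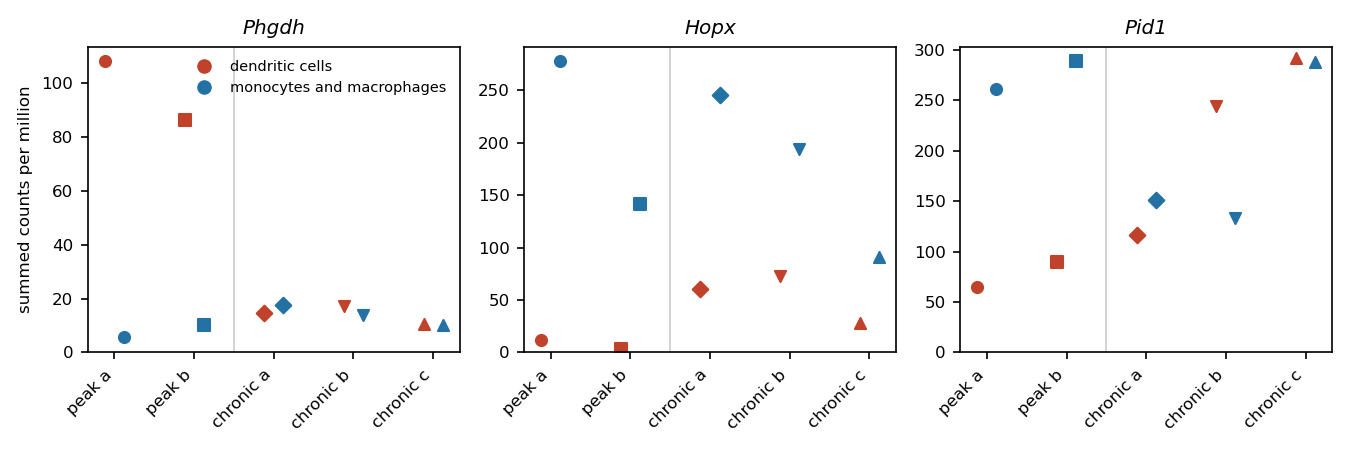
Summed CPM of Phgdh, Hopx and Pid1 in dendritic cells and in monocytes and macrophages of each infiltrating library. The dendritic points of Phgdh are at 86.3 and 108 in the peak libraries and at 10.5 to 17.1 in the chronic ones, while the other class stays between 5.73 and 17.7.

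Of the genes next in order, which were not called, Il1b, an inflammatory cytokine, was at 289, 148, 569, 120 and 156 CPM in dendritic cells and at 388, 581, 237, 26.5 and 129 CPM in monocytes and macrophages (interaction 2.28 ± 0.44, edgeR adjusted p = 0.157). Marcksl1, an actin-binding protein, had an interaction of 1.55 ± 0.32 and Cd101, an inhibitory receptor, of 3.95 ± 0.81. Cst7 (cystatin F), an inhibitor of lysosomal proteases, had -3.65 ± 0.63 (edgeR adjusted p = 0.0704), Rilpl2 -2.03 ± 0.39, Kdr, the VEGF receptor 2, -4.60 ± 0.96 and the myelin gene Mbp -2.09 ± 0.44. Marcksl1 was also among the genes higher in cells with the mature set, at 1589, 3733 and 4091 CPM in peak a, chronic a and chronic b, against 188, 826 and 445 CPM in the others. Without the cells of the mature set, the interaction called 8 genes, and without all cells counted by the mature, plasmacytoid and other-cell markers it called 10.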

How the data were processed

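Myeloid cells sorted from mouse spinal cord were profiled by 10x Genomics single-cell RNA sequencing in 13 libraries. The authors deposited a sparse matrix of UMI counts per gene and cell (22598 features, 116091839 UMIs) with no normalization. Library, pool, class, cluster and doublet mark of every cell come from a second deposited table, which also holds a mitochondrial percent and the log10 of the UMI total. Cell Ranger (3.1.0), R (4.1.3) and the builds mm10 and GRCm38 are named, per the submitters' processing notes. The sources used here do not name the gene annotation. Of 1632 features listed by Ensembl ID, 1556 were given a symbol from a RefSeq table. A dense text copy was not used here.

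The members, the gene lists and the comparisons were chosen with earlier results of these data known. Samples were grouped by the labels. The cell table gives a library's group but not its replicate number. Counts were summed per library and class, in libraries with at least 10 dendritic cells, and scaled to CPM by the summed total. Sums were fitted with edgeR 4.0.16 in R 4.3.3 (filterByExpr, TMM, quasi-likelihood F test, two-sided, Benjamini-Hochberg adjustment over all genes tested, threshold 0.05), which had 3 residual degrees of freedom, and with DESeq2 1.42.0 as an alternative. The biological coefficient of variation was 34.1% in dendritic sums. The scripts were tested on simulated data, where, at a coefficient of 30%, 155 of 178 tested genes changed 4-fold were called in the dendritic fit and 29 of 195 in the interaction. At 50% these were 20 of 175 and 1 of 195. The interaction fit itself had a coefficient of 16.1%, below both settings, so its simulated counts do not measure its power here. The simulation gave all genes the same coefficient and had no outlying library such as chronic a. The dendritic counts are therefore no measure of the power of the real dendritic fit either. With library size alone in place of TMM, the median over all genes was -0.20, and 0 genes were called.

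Named in the comparison of classes were the 20 genes with the largest lowest ratio and a mean of at least 50 CPM, and the 10 lowest. For the stages and the interaction these were called genes, or the 5 with the smallest p in a direction where fewer were called, and members that define a list. This choice skipped Xist, Y-linked genes, predicted genes and ribosomal protein genes. Cells with marker sets were compared where a library had at least 5 of them. Some genes given there were named by the largest lowest ratio, or the smallest highest ratio, of CPM + 50 over these libraries. A mean of at least 200 CPM was asked for, and the marker set was left out on the high side. The direction of these genes in every library was thus part of the choice. Alternatives were other tools, filters, scalings, classes, thinned sums and leaving out each library. Python 3.11.15 with scipy 1.17.1 gave exact intervals and permutation tests, which were two-sided. UMI intervals and limits cover counting error only.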

Additional observations from a re-analysis of the deposited data

Results flagged for a closer look

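The stage difference of 3 genes was not the same in dendritic cells and in monocytes and macrophages, by edgeR's test of the difference itself in the 5 infiltrating libraries. Phgdh, the first enzyme of serine synthesis, had an interaction of -3.66 on the log2 scale, and the dendritic level was higher than that of the other class in 2 of 2 peak libraries. Hopx, a homeodomain protein, had an interaction of 3.01, and Pid1, an adaptor in insulin signalling, one of 2.13. For Hopx and Pid1 the dendritic level was higher in 3 of 3 chronic libraries than in both peak libraries. None of the 3 genes was called against monocytes alone (edgeR adjusted p of 0.151, 0.0722 and 0.114 for Phgdh, Hopx and Pid1). Without chronic b, edgeR's adjusted p was 0.11, 0.11 and 0.202. Without peak a, which leaves 1 peak library, the interactions were -2.94, 3.7 and 1.96 in the same order, and the calls rest on both peak libraries. Hopx was at 0.124 without the cells that held B, T, mast cell or basophil markers.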

How the results depend on the processing

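For dendritic cells, chronic against peak, DESeq2 called 13 genes and edgeR without a filter on low counts 143, against 0. Leaving out 1 library gave 0 to 92 calls, the highest without chronic a. For monocytes and macrophages, 0 became 110 with DESeq2, 313 without a filter, 1 with at least 10 UMIs in every sum and 8 for monocytes alone, and leaving out 1 library gave 0 to 207. The 3 interaction calls became 108 without a filter, 0 against monocytes alone, 1 against macrophages alone, 8 without cells of the mature set and 10 without cells of any marker count, and leaving out 1 library gave 0 to 133. The 61 genes higher in dendritic cells became 97 with a pseudocount of 1 CPM and 13 with 50 CPM, and 66 to 105 with 1 library left out. The 138 lower genes became 219 and 52. The plasmacytoid count of 29 was 50 with a minimum of 2 markers and 16 with cells thinned to 2000 UMIs, which took the cDC1 count from 56 to 7 and the cDC2 count from 125 to 36. The alternatives on pseudocounts, marker minimums, marker cells and left-out libraries for the comparison of classes were chosen after seeing the data. The cause of these moves was not tested. No value for a single named gene changed sign under an alternative: 129 stage values and 108 interaction values kept their side of the threshold, 28 of each passed it and 14 interaction values no longer did. Among list medians, refitted without chronic a alone, that of mature migratory genes turned from 0.28 to -0.16. Those of costimulation, glycolysis, and prostaglandin and retinoid genes turned from 0.16, 0.08 and 0.24 to -0.19, -0.39 and -0.17. The NADPH oxidase median turned from -0.09 to 0.02. That of T cell genes, over 2 genes and then 1, turned from 1.92 to -0.41. The share of dendritic cells kept its direction in 7 of 7 alternatives. No paired analysis was possible because the cell table carries no replicate numbers of the labels. Both gates together were not run, as no resident library held 10 dendritic cells (highest 6). Precision was limited by 5 libraries and by 27 and 35 dendritic cells in the smallest of them.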
